A study of Mus musculus with 16 samples.

Results

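Liver tumours taken at 9 months from mice given the liver carcinogen DEN (diethylnitrosamine) were compared between 2 diets, one high in fructose and one based on cornstarch. The comparison used 5 of the 16 RNA-seq libraries of the series, 3 from fructose tumours (tum9Hfr) and 2 from cornstarch tumours (tum9Cs). Every group used here, including the 3 fructose and 3 cornstarch livers of 9 months set beside the tumours, received DEN, so no untreated tissue entered. The labels give neither the strain and sex of the mice nor whether tumours and livers came from the same animals. They also do not say that the libraries of a group came from separate animals, so p-values measure the spread between these samples, which may be technical in part. Genes were kept for testing when the normalised read count reached 10 in at least 2 of the 5 tumour libraries, which held for 13881 of 47069 gene identifiers.

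Reads assigned to genes numbered from 17758644 to 22771288 in the 5 tumour libraries. Afp, the fetal serum protein used as a liver tumour marker, stood between 1345 and 9647 normalised counts in the tumours and between 41.5 and 484 in the 6 livers. Gpc3, a cell surface proteoglycan of hepatocellular carcinoma, stood between 2541 and 12801 in the tumours and between 43.0 and 555 in the livers. Alb, the hepatocyte protein albumin, made up 7.19% to 16.5% of the reads of each tumour. The tumours therefore carried both hepatocyte and tumour markers, as labelled. Ddx3y, a Y-linked gene, lay between 754 and 1171 in the 5 tumours and Xist, the transcript of the inactive X chromosome, at 9.56 or less.

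One cornstarch library stood nearer to non-tumour liver than the other tumours did. Across tested genes on the log2 scale, cornstarch tumour 1 correlated with the 6 livers at a mean r of 0.938 (single values 0.928 to 0.945). The means of the other 4 tumours lay between 0.895 and 0.902, with single values from 0.873 to 0.923. The share of mitochondrial reads in cornstarch tumour 1 was 4.29%, against 2.54% to 3.02% in those 4. Since this library is 1 of only 2 from cornstarch tumours, results are also given without it.

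Adult mouse hepatocytes express a set of genes at different levels in males and females. The difference follows the pattern in which the pituitary releases growth hormone, which is pulsatile in males and more continuous in females, and it is passed on in the hepatocyte by the growth hormone receptor, the kinase JAK2 and the transcription factor STAT5B. Dietary fructose enters cells through the transporter GLUT5, encoded by Slc2a5, and GLUT2, and in liver it is phosphorylated by ketohexokinase (Khk) and then split. Its carbon can feed the synthesis of fatty acids, whose genes are induced by SREBP1c and ChREBP.

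No single gene passed the limma or edgeR test between fructose and cornstarch tumours. By limma on log2(count + 1), 0 of 13881 genes (0%) reached a Benjamini-Hochberg adjusted p under 0.05, and edgeR on the recovered reads also called 0. The smallest adjusted p in limma was 0.0525. At an unadjusted p under 0.05, limma gave 511 genes higher in fructose tumours (3.68% of those tested) and 614 lower (4.42%), and edgeR gave 1238 in all. The 3 fructose values lay wholly above the 2 cornstarch values for 1537 genes (11.1%) and wholly below them for 1722 (12.4%). DESeq2 on the same reads gave another answer, with 37 of 13029 genes higher (0.284%) and 71 lower (0.545%) at an adjusted p under 0.05, and the groups did not overlap for any of these 108 genes. Without cornstarch tumour 1 the DESeq2 count was 35, and without fructose tumour 1 it was 330. Over all tested genes the median log2 difference, fructose minus cornstarch, was -0.02. All folds below are on the log2(count + 1) scale, which understates the change of genes with low counts.

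Genes were named from those of smallest limma p with a mean of at least 50 over the 5 tumours and groups without overlap. Predicted genes were left out. Those named as lower in fructose tumours were mainly genes of the adult male liver. Mup21, encoding a major urinary protein, had 51.3, 46.1 and 24.4 normalised counts in the 3 fructose tumours and 757 and 936 in the 2 cornstarch tumours. The means were 40.6 ± 14.3 (SD, n = 3) and 847 ± 127 (SD, n = 2), a log2 difference of -4.41 (SE 0.50, limma adjusted p = 0.0525), or 21.2-fold. The DESeq2 adjusted p was 4.2e-13. Slco1a1, an organic anion and steroid transporter of the hepatocyte surface, had 150, 25.9 and 42.6 counts under fructose and 3616 and 1263 under cornstarch (log2 difference -5.25, SE 0.72, limma adjusted p = 0.0936). The fructose values of both genes lay far below the cornstarch values.

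Hsd3b5, a male-predominant hydroxysteroid dehydrogenase, had 27.8, 4.85 and 13.9 counts in fructose tumours and 618 and 433 in cornstarch tumours (log2 difference -5.25, limma adjusted p = 0.102). Mup3 had 4032, 2847 and 1893 against 38641 and 15305 (-3.12, limma adjusted p = 0.102). Susd4, a complement regulator, had 26.1, 27.5 and 30.4 against 336 and 117, a log2 difference of -2.78. Its 3 fructose values lay within a few counts of each other, while its 2 cornstarch values lay far apart, both above them. Cyp2u1, a cytochrome P450 that hydroxylates fatty acids, had 42.6, 18.6 and 8.70 against 243 and 200, a log2 difference of -3.45.

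Other lower genes were named by the same rule. Catsperd, whose product belongs to the sperm calcium channel CatSper, had 10.4, 7.28 and 3.48 counts against 76.6 and 377. Car3, a carbonic anhydrase abundant in male rodent liver and in fat, had 1466, 410 and 1391 against 20425 and 8022, a log2 difference of -3.76. Nudt7, a peroxisomal coenzyme A hydrolase, had 681, 782 and 953 against 3891 and 1900. That the groups of these 9 genes did not overlap was a condition for naming them and is not a result. None of the 9 passed the limma test, while DESeq2 called each of them at an adjusted p under 0.05.

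**Figure D1:**
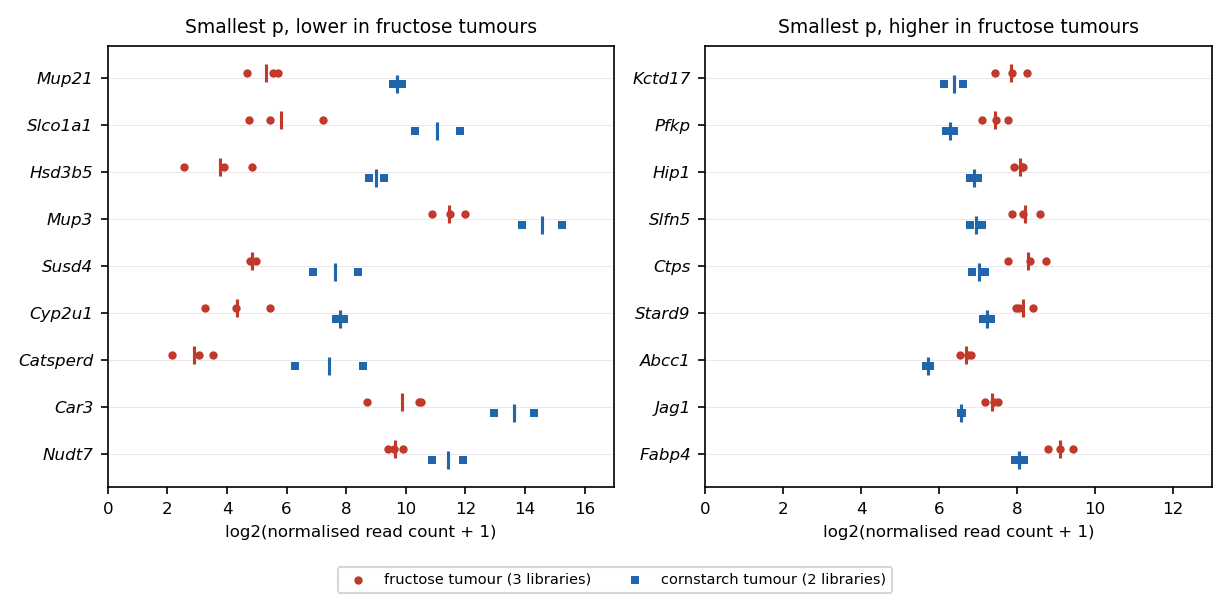
Normalised read counts, as log2(count + 1) on the horizontal axis, of 9 genes with the smallest limma p in each direction (left, lower in fructose tumours, and right, higher). Red circles are the 3 fructose tumours, blue squares the 2 cornstarch tumours and upright ticks the group means. The groups are apart by that rule, and the difference is largest for Slco1a1 and Hsd3b5 (log2 difference -5.25 each). No gene reached a limma adjusted p under 0.05, while DESeq2 called each gene shown.

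Genes known to be more highly expressed in male than in female mouse liver leaned to lower values in fructose tumours. The list was written with earlier results of these data known, so its counts describe it and are not an independent test. Of the 26 genes on this list, Mup5 had no read in any tumour and 25 were tested. Of these, Moxd1, Mup1, Mup11, Mup12 and Elovl3 passed the filter only with the help of the cornstarch tumours, where they are high, so the filter itself favoured a negative difference in them. The other 20 reached 10 counts in at least 2 fructose tumours, a selection made after seeing the data. All 20 had a negative log2 difference, with a median of -2.66, where 51.4% of the 13288 genes that met the same condition were negative with a median of -0.01. At an unadjusted p under 0.05 in limma, 17 of the 20 were lower (3.98% of those 13288 genes), and the groups did not overlap for 16 (12% of them). DESeq2 called 9 of the 18 to which it gave an adjusted p (0.382% of 12835 genes).

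Over all 25 tested genes, described without reading the filtered ones as support, the differences were negative with a median of -3.38. Limma gave 22 of them an unadjusted p under 0.05 (background 4.42%), and 21 had groups without overlap (background 12.4%). By limma with adjustment over all genes, 0 of the 25 passed. DESeq2 called 11 (background 0.545%), which is 44% of the list and 15.5% of its 71 lower genes. Leaving out 1 fructose tumour gave DESeq2 counts for the list from 10 (without fructose tumour 2) to 15 (without fructose tumour 1). In those fits DESeq2 called 115 of 13678 and 155 of 13666 genes lower. Without cornstarch tumour 1, which left that group with 1 library, 22 of the list were tested and the limma median was -2.40. With all 16 libraries in the fit, 14 of the 25 were lower at an unadjusted limma p under 0.05. In that fit 1474 of 13881 genes had such a p in either direction. Leaving out each of the other 4 tumours gave medians between -2.88 and -3.54.

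Major urinary proteins, which carry pheromones in the urine of male mice, contributed 7 of the 25 genes. Mup7 had 209, 36.4 and 81.8 counts in fructose tumours and 5820 and 2155 in cornstarch tumours, a log2 difference of -5.36. Mup20, the pheromone darcin, had 20003, 8591 and 3461 against 37139 and 41140. Mup1 and Mup12 were nearly silent under fructose, at 0, 0.809 and 0 and at 3.48, 0 and 0.870 counts, against 54.7 and 11.8 and against 134 and 55.6 under cornstarch. Mup1 and Mup12 passed the filter only with the help of the cornstarch tumours, so their direction is not read as support. Mup7 and Mup20 were lower in each fructose tumour than in either cornstarch tumour.

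Several Mup genes are near copies of one another, so reads of one can be counted for another. Of the 50-base words in the longest GENCODE transcript of each gene, 94.8% of those of Mup1, 90.2% of Mup7, 89.0% of Mup11 and 85.4% of Mup12 also occurred in a transcript of another gene. The share was 50.5% for Mup20. It was 19.3% for Mup21 and 15.6% for Mup3, whose counts are therefore less exposed to this. The starts of some of the genes are alike as well. Of the 4 Mup genes with a RefSeq window, Mup3, Mup21 and Mup11 shared a stretch with the letters TATATAA, while the window of Mup7 did not hold these letters. The Mup7 window ends with letters that in the Mup11 window come before the stretch. It therefore cannot show whether Mup7 has the stretch. The following 60-base stretches at the start of 3 Mup genes come from RefSeq promoters on GRCm38.p6. They are written 5′ to 3′ on the strand of the gene, with TATATAA in capitals, and are shown because they are alike.
Mup3: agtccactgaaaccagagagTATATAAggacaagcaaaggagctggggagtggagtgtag
Mup21: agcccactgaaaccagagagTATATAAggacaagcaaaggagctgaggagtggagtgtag
Mup11: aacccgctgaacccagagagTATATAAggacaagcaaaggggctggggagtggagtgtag
They lie at chr4:62087289-62087348, chr4:62150810-62150869 and chr4:60662358-60662417, all on the minus strand, and the motif begins 11, 8 and 2 bases before the annotated start. Mup3 and Mup21 were identical at 58 of the 60 bases and each matched Mup11 at 55. TATATAA, searched on both strands, occurred in 3.24% of all 32851 promoter windows of 300 bases.

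Outside the Mup family the list showed the same direction. All 18 of its other tested genes were negative with a median of -2.66. Elovl3 and Moxd1 are among these 18 and passed the filter only with the help of the cornstarch tumours. Counts that include them are therefore given as a description and not read as support. Of these 18, 15 had an unadjusted limma p under 0.05 (background 4.42%), 14 had groups that did not overlap (background 12.4%) and DESeq2 called 6 (background 0.545%). Some of the 18 also share 50-base words with another gene, so their reads can be miscounted too. The share was 62.3% for Gstp1, 52.0% for Selenbp2, 49.4% for Cyp4a12b, 48.9% for Cyp4a12a, 35.6% for Serpina1e, 29.0% for Cyp2d9 and 21.2% for Hsd3b5. It was 0% for C6, C8b and Elovl3. Elovl3, a fatty acid elongase, had 35.6, 0 and 3.48 counts in fructose tumours and 216 and 312 in cornstarch tumours. Cyp4a12a, the main fatty acid and arachidonate hydroxylase of male mouse liver, had 102, 12.1 and 224 against 2086 and 726. C6 and C8b, components of the terminal complement complex, had 383, 364 and 1553 against 2053 and 2470, and 985, 713 and 1177 against 2931 and 1966.

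Serpina1e, a protease inhibitor of the alpha-1-antitrypsin family, had 31813, 712 and 1714 counts against 36202 and 81422, so that fructose tumour 1 lay close to the cornstarch tumours. Cyp7b1, an oxysterol hydroxylase, overlapped between the diets, at 127, 114 and 1443 against 2786 and 669. Gstp1, C8a and Ugt2b1 were the 3 genes of the list with an unadjusted p above 0.05, with log2 differences of -0.55, -0.63 and -0.41. Thus the size of the difference ran from less than 1 log2 unit to more than 5 within the list.

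**Figure D2:**
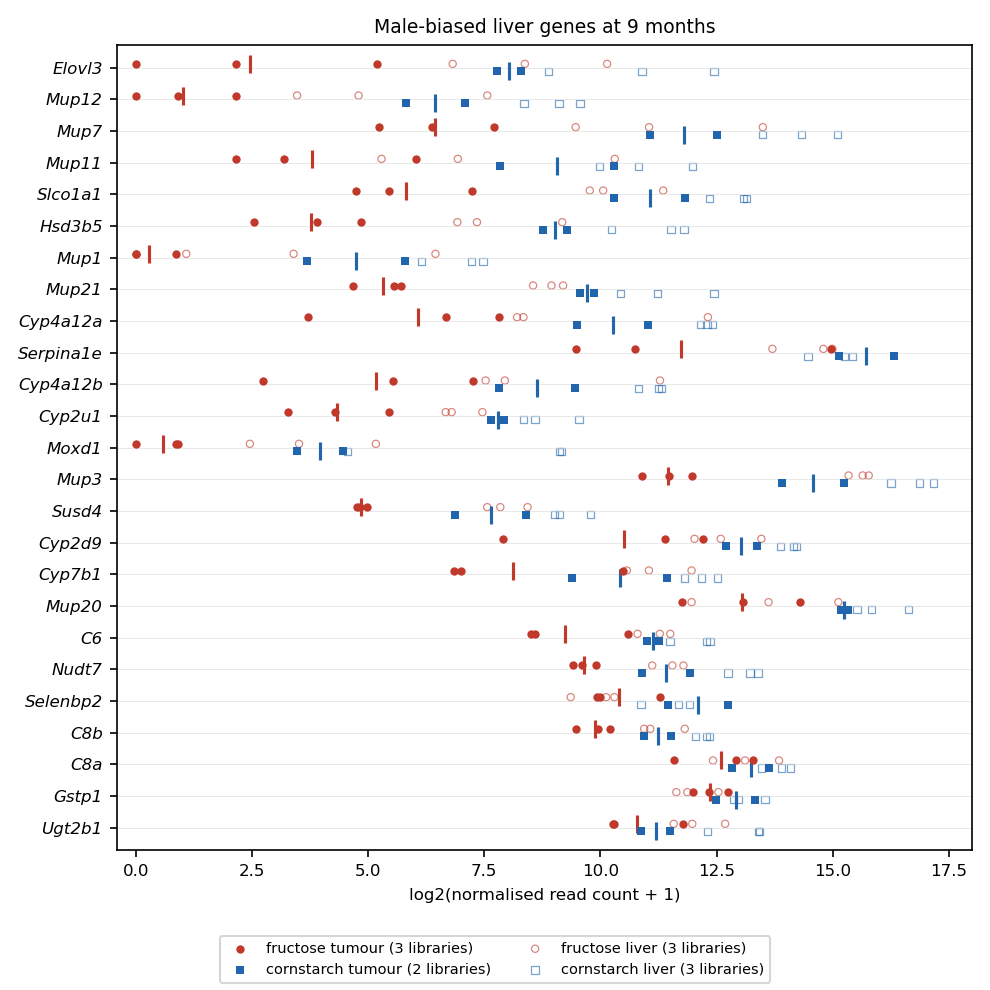
The 25 tested male-biased genes, ordered by their log2 difference, with log2(normalised read count + 1) on the horizontal axis. Filled symbols are tumours and open symbols livers of 9 months, red circles fructose and blue squares cornstarch, and upright ticks are the tumour group means. Fructose tumours hold the lowest values of most genes, and fructose livers also tend to lie below cornstarch livers (list median -1.85 in liver, -3.38 in tumours).

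In livers of the same age the list went the same way. Its median log2 difference, fructose minus cornstarch, was -1.85 in liver, and Mup21 had 586, 374 and 493 counts in fructose livers against 2396, 5583 and 1385 in cornstarch livers. Genes whose fructose liver values all lay below the cornstarch liver values made up 10.6% of those tested. The log2 difference of Mup21 was -2.47 in liver, and the tumour difference minus the liver difference was -1.94 (limma unadjusted p = 0.016, adjusted p = 1). For Slco1a1 the corresponding values were -2.47 in liver and -2.78 for tumour minus liver (limma unadjusted p = 0.015, adjusted p = 1). Neither difference between tumour and liver passed the test. One cornstarch liver, replicate 3, had 226 counts of Xist where the other 10 libraries of 9 months had 25.8 or less, and its Ddx3y count of 594 was the lowest of the 11. What that library holds was not tested.

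Promoters of the list were searched for the STAT5 site TTCNNNGAA, which reads the same on both strands. RefSeq gave promoter windows, from 250 bases before to 50 after the start, for 17 of the 25 genes, and 2 of these genes held a match, in 10.5% of their 19 windows. Across all 32851 windows of 300 bases the share was 8.30%. The 2 matches are shown in capitals within 41 bases, as the only such sites found in the list.
C8a: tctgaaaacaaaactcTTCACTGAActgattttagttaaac
Moxd1: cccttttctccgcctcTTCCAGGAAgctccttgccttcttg
They lie at chr4:104876602-104876642 on the minus strand and chr10:24223351-24223391 on the plus strand of GRCm38.p6. C8a was among the genes that differed least (log2 difference -0.63), while Moxd1, a monooxygenase relative, had 0.869, 0.809 and 0 counts in fructose tumours against 10.1 and 21.0. A match of these letters is a description of the window and not evidence of binding.

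Among tested genes, those more highly expressed in female liver did not mirror the male set. Of 28 genes listed only 20 were tested, with 12 positive and 8 negative and a median of 0.45 in tumours and 1.76 in livers. The tumour median was 0.99 without fructose tumour 1, 0.12 without fructose tumour 2, 0.01 without fructose tumour 3 and 0.92 without cornstarch tumour 1. Cyp3a16 had 13.0, 84.1 and 420 counts in fructose tumours against 10.1 and 4.55, and Cyp3a44 had 30.4, 159 and 256 against 2.52 and 37.3. Both are cytochromes P450 of female or juvenile liver. Cyp2b9 and Cyp2b13 were the other way round, Cyp2b9 with 5805, 252 and 262 against 2887 and 4870. Cux2, a female-specific transcription repressor of male genes, was near the floor in fructose tumour 1 (6.09 counts) and both cornstarch tumours (8.41 and 6.38) but stood at 261 and 422 in fructose tumours 2 and 3. The tumours of 1 diet therefore did not share 1 level of these genes.

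Genes of growth hormone signalling itself were less uniform, and those named here were chosen after their values were seen. Ghr, the growth hormone receptor, had 1386, 1760 and 2829 counts in fructose tumours and 5074 and 4039 in cornstarch tumours, without overlap (log2 difference -1.25, limma adjusted p = 0.3, DESeq2 adjusted p = 0.0132). Stat5b had 760, 593 and 832 counts against 638 and 680, and the groups overlapped. Igf1, the growth factor that growth hormone induces in liver, had 1153, 1943 and 5043 against 4196 and 1437. Socs2, a feedback inhibitor induced by growth hormone, had 148, 242 and 1041 against 154 and 165. Igf1 and Socs2 were both highest in fructose tumour 3, and neither separated the diets.

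For fructose and glucose handling, 21 genes were listed and tested, of which 19 were negative, with a median of -0.33. None passed the limma test, and 4 had fructose values wholly below the cornstarch values (background 12.4%). Slc2a5, encoding the fructose transporter GLUT5, had 21.7, 37.2 and 45.2 counts in the fructose tumours and 182 and 155 in the cornstarch tumours. The means were 34.7 ± 11.9 (SD, n = 3) and 168 ± 19.0 (SD, n = 2), a log2 difference of -2.30 (SE 0.49, limma adjusted p = 0.265, DESeq2 adjusted p = 0.00278). Tumours on the fructose diet thus held less transcript of this transporter than either cornstarch tumour. It was the only gene of the list that DESeq2 called (background 0.545% lower).

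Khk and Tkfc, enzymes that act on fructose carbon inside the cell, did not separate the diets. Khk had 1646, 3624 and 2404 counts in fructose tumours against 2809 and 3338, and Tkfc, the triokinase, 5952, 9166 and 6091 against 6358 and 7608. Their log2 differences were -0.33 and -0.01. Gys2, the liver glycogen synthase, had 3432, 5058 and 4518 against 5965 and 8957, without overlap (log2 difference -0.77, limma adjusted p = 0.595). G6pc, the enzyme that releases free glucose, had 335, 475 and 2084 against 2033 and 2735, and Mlxipl, encoding ChREBP, had 2761, 2904 and 3023 against 3321 and 4506.

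No gene of fatty acid synthesis separated the diets. Of 20 tested genes 10 were positive and 10 negative, the median was 0.00, none had an unadjusted p under 0.05 and none had groups without overlap. Scd1, the stearoyl-CoA desaturase, had 10756, 412776 and 156209 counts in fructose tumours and 12143 and 238171 in cornstarch tumours. Fasn, the fatty acid synthase, had 3549, 25970 and 14166 against 4273 and 25672. Fructose tumour 1 and cornstarch tumour 1 were the low libraries for both genes, and each diet had at least 1 low and 1 high tumour. The list median was -0.71 without cornstarch tumour 1 and 0.57 without cornstarch tumour 2, so its sign rested on which of those 2 was kept.

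Cholesterol synthesis genes, which SREBP2 controls, were lower in fructose tumours on average. All 24 had a negative log2 difference, with a median of -0.77 in tumours and -0.94 in livers. Of these, 2 had an unadjusted limma p under 0.05 (background 4.42%) and 3 had groups that did not overlap (background 12.4%). Ebp, a sterol isomerase, had 1054, 1396 and 1857 counts against 2766 and 3451 (log2 difference -1.14, SE 0.25, limma adjusted p = 0.281, DESeq2 adjusted p = 0.00963). Hmgcs1, the synthase that begins the pathway, had 2871, 2744 and 7408 against 7742 and 14056. Cyp51 had 1686, 1735 and 5160 against 4348 and 7382, where fructose tumour 3 overlapped. The median was -1.30 without cornstarch tumour 1 and -0.23 without cornstarch tumour 2, with 24 and 20 of the 24 genes negative, and -0.42 with 21 negative without fructose tumour 1.

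**Figure D3:**
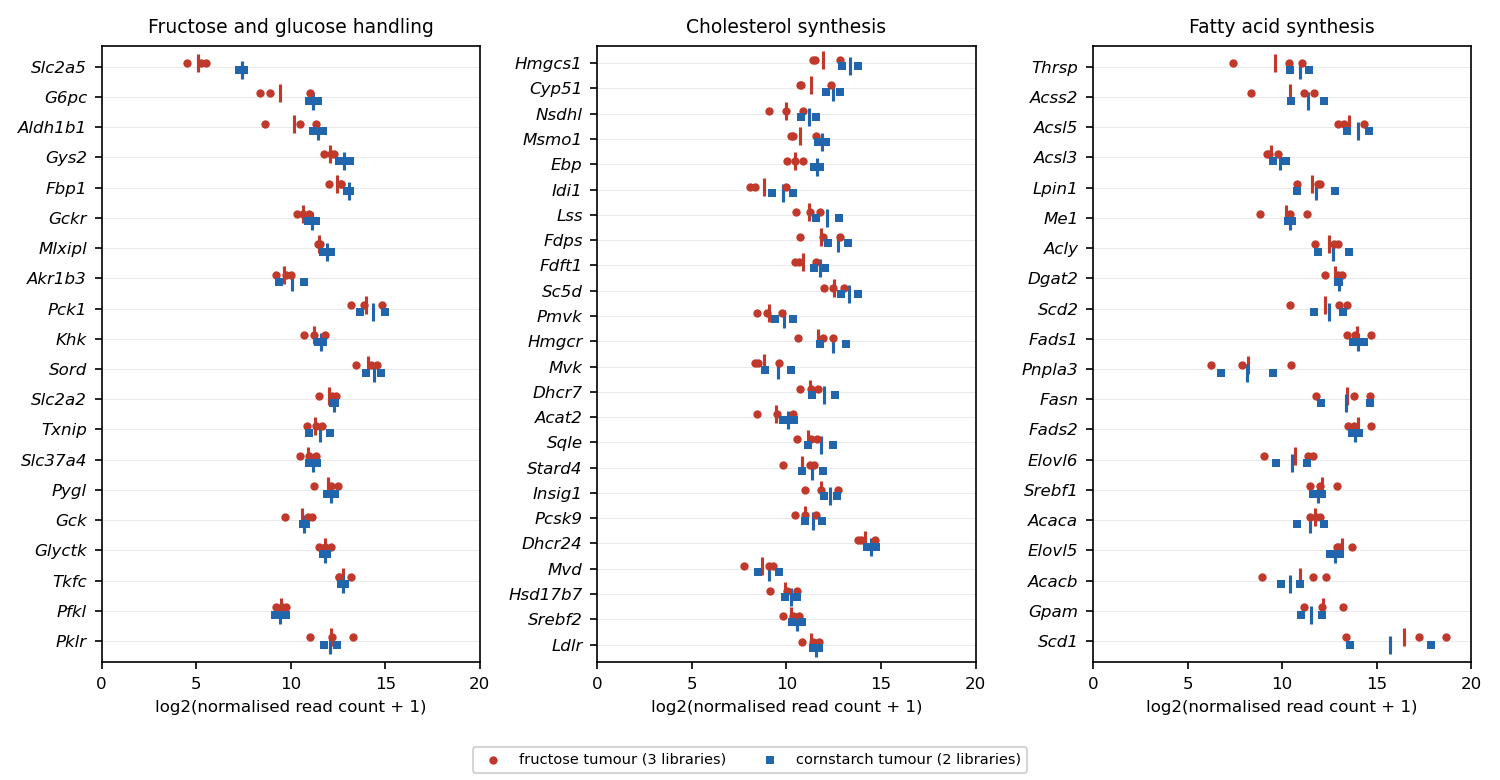
Genes of fructose and glucose handling (left), cholesterol synthesis (middle) and fatty acid synthesis (right), each ordered by log2 difference, with log2(normalised read count + 1) on the horizontal axis. Red circles are the 3 fructose tumours, blue squares the 2 cornstarch tumours and upright ticks the group means. Slc2a5 is set apart at the top of the left panel, the cholesterol genes lean to lower fructose values (median -0.77), and the fatty acid genes overlap throughout.

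Other functions of the mature hepatocyte also leaned to lower values in fructose tumours. All 25 genes of amino acid breakdown and the urea cycle were negative, with a median of -0.56 (livers -0.06), and 7 had groups without overlap (background 12.4%). Otc, a urea cycle enzyme, had 1753, 2810 and 1365 counts against 3256 and 3786, and Sds, the serine dehydratase, 478, 662 and 115 against 1225 and 1716. Neither passed the limma test, with adjusted p = 0.468 and 0.564. Without fructose tumour 1 the list had 19 of 25 genes negative and a median of -0.30.

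Periportal genes, expressed in hepatocytes near the portal vein, had a median of -0.86, with 15 of 18 negative, and of -0.38 with 12 negative without fructose tumour 3. Cyp2f2, a periportal cytochrome P450, had 593, 525 and 522 counts in fructose tumours, closely alike, and 4901 and 1210 in cornstarch tumours (log2 difference -2.16, limma adjusted p = 0.359). Among general hepatocyte genes 21 of 25 were negative, with a median of -0.48, which was -0.31 without fructose tumour 3 and -0.22 without cornstarch tumour 2. Ttr, the thyroid hormone carrier transthyretin, had 31243, 49126 and 41986 against 64197 and 118379. Since whole tumours were sequenced, fewer hepatocytes and less RNA per hepatocyte cannot be told apart. Chaperones of the endoplasmic reticulum were negative in 19 of 20 genes (median -0.48), in 12 of 20 without cornstarch tumour 2 (median -0.10), and in all 20 without cornstarch tumour 1 (median -0.80).

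Among genes higher in fructose tumours, those named by the same rule differed by less than the lower ones. Kctd17, an adaptor of a ubiquitin ligase, had 302, 171 and 232 counts in fructose tumours and 68.2 and 97.5 in cornstarch tumours. The means were 235 ± 65.5 (SD, n = 3) and 82.8 ± 20.7 (SD, n = 2), a log2 difference of 1.48 (SE 0.27, limma adjusted p = 0.181). Pfkp, the phosphofructokinase isoform outside liver and muscle, had 176, 135 and 217 against 81.6 and 71.1. Slfn5, an interferon-induced gene, had 282, 387 and 230 against 109 and 136. That the 3 fructose values exceeded both cornstarch values was again a condition for naming these genes.

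Ctps, the CTP synthase, had 215, 426 and 323 counts against 145 and 114, and Abcc1, an efflux pump for glutathione conjugates, 106, 91.4 and 112 against 49.6 and 53.8. Jag1, a Notch ligand, had 183, 143 and 169 against 95.1 and 92.9, with log2 difference 0.80. Hip1, a clathrin adaptor, Stard9, a mitotic kinesin, and Fabp4 were also among them, with log2 differences of 1.16, 0.92 and 1.05. Apart from Kctd17, the limma adjusted p of the 9 named genes ran from 0.247 for Pfkp to 0.304 for Fabp4. DESeq2 called each of the 9 at an adjusted p under 0.05. Lepr, the leptin receptor, was chosen after its values were seen: it had 534, 2626 and 2505 counts in fructose tumours and 188 and 199 in cornstarch tumours (log2 difference 2.97, SE 0.78, limma adjusted p = 0.434, DESeq2 adjusted p = 0.0015).

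Lipid droplet and lipid uptake genes had a median of 0.26 over 18 tested genes, with 13 positive. It was 0.63 without cornstarch tumour 1 and 0.53 without fructose tumour 1. Fabp4, a fatty acid binding protein of macrophages, endothelium and fat, had 444, 548 and 689 counts against 243 and 290. Cd36, the fatty acid translocase, had 1467, 3015 and 2427 against 1376 and 699, and Cidec, a lipid droplet fusion protein, 843, 2711 and 528 against 472 and 155. The fat cell genes Adipoq, Lep, Plin1 and Retn were at or near 0 in all 5 tumours, but other genes of the fat cell list were not. Of its 12 genes 7 were tested, 3 positive and 4 negative, with a median of -0.18. Fabp4 and Cidec belong to this list too. Cidea, another member, had 20.9, 15.4 and 13.9 counts against 26.1 and 78.3. The part of fat cell content in the lipid uptake values was not tested. Glycolysis and hypoxia genes had a median of 0.43 with 18 of 22 positive, and Hk2, the hexokinase of proliferating cells, had 34.8, 155 and 244 against 32.0 and 24.6.

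Interferon and antigen presentation genes leaned higher under fructose, with 24 of 31 positive, a median of 0.60 and 12 that lay wholly higher (background 11.1%). Another 2 lay wholly lower under fructose (background 12.4%). B2m, the MHC class I light chain, was among these, with 21381, 21283.5 and 18472 counts against 25985 and 26888. Gbp2, an interferon-induced GTPase, had 109, 294 and 346 counts against 99.3 and 92.0, and H2-Aa, an MHC class II chain, 1076, 2138 and 1141 against 842 and 748. Limma gave 5 of the 31 an unadjusted p under 0.05, all higher (background 3.68%), and called none. The summed counts of the list were 77849, 92041 and 74298 in fructose tumours and 83527 and 93657 in cornstarch tumours, so the groups overlapped. The median was 0.28 without fructose tumour 3 and 0.34 without fructose tumour 2.

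Macrophage markers also leaned higher. Of 26 tested markers 20 were positive, with a median of 0.72, and 8 had groups without overlap (background 11.1%). The complement genes C1qa, C1qb and C1qc had 767 to 1858 counts over the 3 fructose tumours and 449 to 776 over the cornstarch tumours. Adgre1, encoding the macrophage marker F4/80, had 565, 1041 and 252 against 143 and 216. Clec4f, a marker of resident Kupffer cells, was the other way round, with 451, 654 and 240 against 800 and 739. The summed counts of the list lay between 12720 and 29396 in fructose tumours and between 12198 and 17844 in cornstarch tumours, so the groups overlapped. The median of the list was 0.25 without cornstarch tumour 2. The part of macrophage content in the interferon and lipid uptake values was not tested.

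Endothelial markers had a median of 0.38, with 15 of 19 positive. This median was 0.06 without fructose tumour 2, 0.24 without fructose tumour 1 and 0.19 without cornstarch tumour 1, and 0.65 and 0.67 without fructose tumour 3 and cornstarch tumour 2. Cd34, a marker of capillary endothelium, had 153, 164 and 211 counts against 58.1 and 82.0 (log2 difference 1.33, limma adjusted p = 0.35, DESeq2 adjusted p = 0.0121). Stellate cell and matrix genes had a median of 0.20 in tumours, of -0.24 without cornstarch tumour 2 and of 0.56 without cornstarch tumour 1, against 1.01 in livers. Col4a1 and Col4a2, chains of basement membrane collagen, had 1955, 2882 and 2966 counts against 1323 and 1718, and 1341, 2139 and 1704 against 772 and 1130. Col1a1, the main scar collagen, overlapped fully in tumours, with 416, 366 and 795 against 733 and 180 (log2 difference 0.44), where its liver difference was 2.55. That contrast between tumour and liver had an unadjusted limma p of 0.039 and an adjusted p of 1.

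B and plasma cell genes were lower on average, with 11 of 12 negative and a median of -0.89, which was -0.37 without fructose tumour 3 and -0.49 without cornstarch tumour 2. Igha and Jchain, the heavy chain and joining chain of secreted IgA, had 2909, 6238 and 359 counts against 5732 and 20407, and 660, 1664 and 80.9 against 1347 and 4834. Fructose tumour 3 was lowest and cornstarch tumour 2 highest in both. Cd79a, a B cell receptor subunit, had 18.3, 15.4 and 4.35 against 21.9 and 70.1. No B cell gene passed the limma test. T and NK cell genes were few and near the median of all genes, with a list median of -0.05 over 13 tested.

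**Figure D4:**
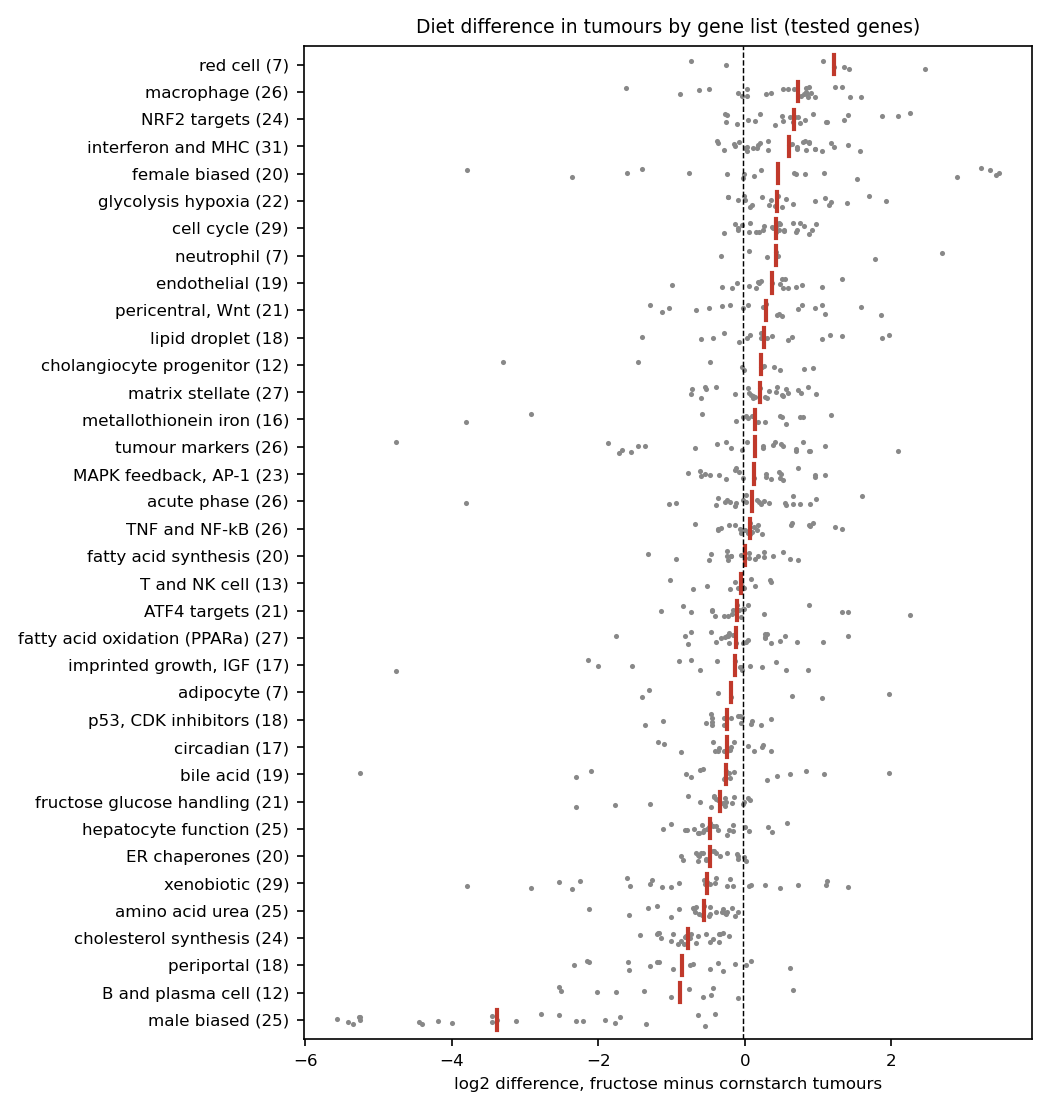
Log2 difference, fructose minus cornstarch tumours, of the tested members (grey points) of the 36 gene lists, with the number tested in brackets and the list median as a red bar. The dashed line is the median of all 13881 tested genes (-0.02). The male-biased list stands at the bottom with a median of -3.38, and the other medians lie between -0.89 and 1.22.

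Single tumours stood apart in a number of genes that were chosen after their values were seen. Glul, the glutamine synthetase that Wnt signalling confines to hepatocytes around the central vein, had 2478, 3187 and 115419 counts in the fructose tumours, 12989 and 6868 in the cornstarch tumours and 18243 to 26731 in the livers. Fructose tumour 3 was the highest of the 11 libraries, and the other 4 tumours were below every liver. Axin2, a feedback target of Wnt signalling, had 41.7, 97.9 and 1329 against 89.2 and 25.5, and Nkd1, another such target, 44.3, 30.7 and 1179 against 67.3 and 47.4. Lgr5 and Notum were also highest in fructose tumour 3, at 492 and 1328 counts. Of the pericentral and Wnt list the median was 0.29 with that tumour and -0.60 without it. It was 1 without fructose tumour 1, 0.66 without fructose tumour 2, 0.59 without cornstarch tumour 1 and -0.29 without cornstarch tumour 2.

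The same fructose tumour was highest for several NRF2 targets, genes of the antioxidant response. Slc7a11, the cystine transporter, had 110, 290 and 2125 counts against 90.0 and 79.3, and Gstm3, a glutathione transferase, 193, 2387 and 23769 against 447 and 1563. The median of the 24 NRF2 genes was 0.67, 0.15 without fructose tumour 3 and 1.05 without fructose tumour 1. Afp had 1441, 1345 and 6692 counts in fructose tumours and 7577 and 9647 in cornstarch tumours, so the groups did not overlap, with a log2 difference of -1.86 and a limma adjusted p of 0.68. H19, an imprinted fetal transcript, had 1242, 39.6 and 331 against 1445 and 33598, with cornstarch tumour 2 far above the other 4 tumours. Meg3, an imprinted transcript of the Dlk1 region, had 1302, 8.09 and 541 against 1606 and 348.

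No cell cycle gene passed the limma test between the diets. Of 29 cell cycle genes 24 were positive with a median of 0.43, -0.09 without cornstarch tumour 1, 0.26 without fructose tumour 3 and 0.66 without cornstarch tumour 2. Mki67, the marker Ki-67, had 205, 323 and 638 counts against 90.9 and 397, and Mcm2, a replication helicase subunit, 264, 335 and 319 against 202 and 170. The within-group spread, as the median SD over genes on the log2 scale, was 0.30 in the tumour groups and 0.28 in the livers of 9 months.

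**Figure D5:**
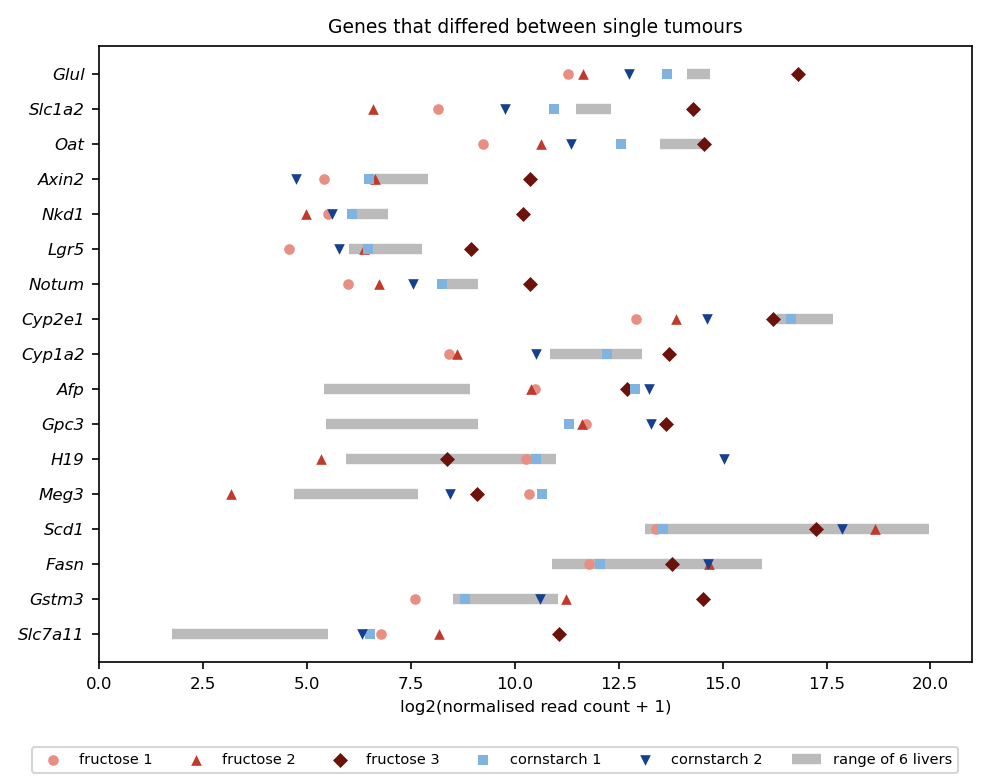
Log2(normalised read count + 1) of 17 genes in each of the 5 tumours, with a symbol for each tumour and a grey bar for the range of the 6 livers of 9 months. Fructose tumour 3 (dark diamonds) holds the highest tumour value of Glul, Axin2, Nkd1 and Gstm3, cornstarch tumour 2 that of H19, and Scd1 and Fasn split both diets.

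Whether the diet effect differed between tumour and liver was tested as an interaction over the 11 libraries of 9 months. Limma called 0 of 13881 genes (0%), with 388 at an unadjusted p under 0.05, edgeR called 0 with 415 at an unadjusted p under 0.05, and DESeq2 called 1. The 5 genes of smallest p were Gm42892, Sertad4, P2rx7, Irx1 and Slc3a1, all with a limma adjusted p of 1. Slc3a1, a subunit of the cystine and dibasic amino acid transporter, had 120, 75.2 and 20.9 counts in fructose tumours against 401 and 1486, a log2 difference of -3.72, where in livers it was 0.43. Irx1, a homeobox gene that passed the filter only through the cornstarch tumours, had 0.869, 0.809 and 0.870 counts against 24.4 and 10.9. P2rx7, an ATP-gated channel of myeloid cells, had 209, 201 and 62.6 against 299 and 516, a log2 difference of -1.50 in tumours and 1.10 in livers. Diet effects in tumours and livers come from separate samples, and neither limma nor edgeR called a difference between the tissues.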

How the data were processed

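Gene expression was measured by RNA-seq (TruSeq mRNA libraries, per the labels' protocols) in tumours and livers of DEN-treated mice. Per the submitters' processing notes the tools were FastQC, Trim Galore, STAR, RSEM and DESeq2 with GRCm38; no versions are recorded in the notes. The deposited table holds a normalised count signal per Ensembl gene, which the authors scaled by size factors. Dividing each library by the value of 1 read gave whole numbers for 100% of values within 0.01, and edgeR 4.0.16 and DESeq2 1.42.0 were run on those reads. RSEM splits reads among similar genes, and how the counts were made whole is not stated.

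The test covered genes reaching 10 in 2 or more of the 5 tumour libraries, and was made with limma 3.58.1 (trend, R 4.3.3) on log2(value + 1), with a pseudocount of 1. The fit held the group means of the 11 libraries of 9 months, which share 1 estimate of spread (7 residual degrees of freedom), and p-values were adjusted by Benjamini-Hochberg over all tested genes, with a threshold of 0.05. The tumour libraries held 17758644 to 22771288 reads. Gene names come from GENCODE M21, which held 98.8% of the identifiers. Scripts were tested on simulated data.

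Some genes are not reported here. Named genes were from the 10 of smallest p in each direction with a mean of at least 50 and no overlap (predicted genes left out), the 3 of smallest p in a list where they help to describe it, the 5 of smallest p in the interaction, a fixed set of metabolic, inflammatory and tumour genes, and list members named to show a pathway. The comparison, the lists and the named genes were chosen with earlier results of these data known. Alternatives were other scalings, filters, pseudocounts, tools and the leaving out of single libraries.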

Additional observations from a re-analysis of the deposited data

How the results depend on the processing

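Limma called 0 genes between fructose and cornstarch tumours. It called 2 with a pseudocount of 0.5, and 1 with a minimum value of 50, with TMM scaling, with quantile normalisation and with array weights. DESeq2 called 108 (37 higher, 71 lower), and 82 on the 5 tumour libraries alone, a setting added after seeing the data. Leaving out 1 tumour library gave 0 to 24 genes with limma, the 24 without fructose tumour 1, and 35 to 330 with DESeq2 (added after seeing the data), so over both tools 0 to 330. For the difference of the diet effect between tumour and liver, DESeq2 called 1 gene, leaving out a library gave 0 genes with limma and 0 to 44 with DESeq2 (tumour libraries only), and the other settings run gave 0. Why the tools differ was not tested. The median of the male-biased genes was negative under every setting run. It was -2.40 with limma and -2.13 with DESeq2 without cornstarch tumour 1.

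Signs of 10 named genes, each with a small or variable difference, turned under some settings. The log2 difference of Tkfc was 0.012 with upper-quartile scaling, 0.15 with quantile normalisation, 0.10 with array weights, 0.031 with edgeR on the 5 tumour libraries alone, 0.018 with DESeq2 and 0.028 with DESeq2 on those 5. That of Fasn was -0.054 with edgeR and -0.040 with DESeq2, and -0.021 and -0.026 on the 5 tumour libraries alone. Array weights gave -0.16 for Gpc3 and -0.41 for Glul. Over both tools, leaving out 1 library gave ranges of -0.21 to 0.15 for Tkfc, -0.95 to 1.33 for Gpc3, -1.81 to 2.57 for Glul, -1.23 to 1.76 for Fasn, -1.43 to 3.98 for Scd1, -0.13 to 0.62 for Srebf1, -0.44 to 0.97 for Acaca, -0.19 to 2.09 for Mki67, -0.58 to 1.10 for Tnf and -0.57 to 1.54 for Col1a1.

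No paired analysis was possible because the labels carry no replicate numbers and do not say which tumours and livers share an animal. The comparison rests on 3 against 2 tumours, and where a fit left cornstarch with 1 library, that library was assumed to vary like the other groups.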

Other observations

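Some gene groups outside the comparisons above also differed between single tumours. Hamp, encoding the iron hormone hepcidin, had 5958, 62.3 and 37.4 normalised counts in the 3 fructose tumours and 3300 and 3554 in the cornstarch tumours, so that fructose tumour 1 lay with the cornstarch tumours. Tfrc, the transferrin receptor, had 490, 1125 and 1355 counts against 433 and 373, and the 3 fructose values were the higher ones (log2 difference 1.17, limma adjusted p = 0.52). Haemoglobin transcripts were highest in fructose tumour 3, where Hbb-bs had 6187 counts against 587 to 1693 in the other 4 tumours.

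Bile acid synthesis and efflux genes split within the fructose group as well. Cyp8b1, the sterol 12-alpha-hydroxylase, had 211, 53.4 and 2021 counts in fructose tumours and 2877 and 521 in cornstarch tumours. Abcc4, an export pump of the basolateral hepatocyte membrane, had 144, 1118 and 2345 counts against 187 and 181, so fructose tumours 2 and 3 were high and fructose tumour 1 was not. Abcc3, a related pump, had 3625, 4662 and 5236 against 3074 and 2027, without overlap (log2 difference 0.84, limma adjusted p = 0.609). Among early growth response genes, Myc had 180, 306 and 380 counts against 133 and 149 (log2 difference 0.96, limma adjusted p = 0.582).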
